A study of Mus musculus with 2 samples.

Results

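The 10 genes of the HRI and ATF4 stress response described here were Eif2ak1, Eif2ak4, Atf4, Atf5, Ddit3, Trib3, Asns, Ppp1r15a, Ppp1r15b and Sesn2. They were taken by name, found in the gene and transcript tables by Ensembl identifier, and made up 10 of 21474 protein-coding genes and 34 transcripts. The cells were of the MEL line, a murine erythroleukemia blocked at an early step of red cell formation, and dimethyl sulfoxide (DMSO) releases that block and starts hemoglobin production. All libraries came from MEL cells kept in 2% DMSO for 5 days, and polyadenylated RNA was sequenced in 1 group of 2 biological replicates. No untreated cells were analysed here, so the values describe how much of each messenger the DMSO-treated cells held, not how DMSO changed it, and no test between conditions could be made. The line is a leukemia, and the labels give 1 cell sample identifier for both libraries, so the spread between them may be partly technical.

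HRI, the product of Eif2ak1, is the eIF2 alpha kinase of red cell precursors and is held inactive by heme. When heme is short, or when mitochondria are under stress, it phosphorylates eIF2 alpha, which lowers protein synthesis as a whole and raises translation of a few messengers, among them Atf4. ATF4 then activates genes for amino acid supply, stress signalling and, through PPP1R15A, the removal of the phosphate from eIF2 alpha.

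Replicate 1 held 26149725 estimated reads and replicate 2 held 14149299. For a gene without reads, the depth allows up to 0.115 CPM in replicate 1 and 0.212 CPM in replicate 2 (CPM is a count scaled by depth alone), which is 3 counts and covers counting error only. All 8 erythroid markers were detected, meaning at least 1 TPM in both libraries, and their summed level was 20618 TPM in replicate 1 and 35389 TPM in replicate 2 (TPM scales reads by the length of the transcript and by depth). Of 26 markers of other cell types, 5 were detected. These were all 4 megakaryocyte markers (95 and 189 TPM summed in replicates 1 and 2) and Pecam1, while the 7 macrophage and granulocyte, 4 mast cell, 4 lymphocyte and 4 fibroblast markers gave 0 detected genes.

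All 10 genes were detected in both libraries, where 45.5% of protein-coding genes were (9776 of 21474). Their median level was 56.9 TPM, against 0.6 TPM over all protein-coding genes and 15.5 TPM over the detected ones. Together they took 0.160% of estimated reads in replicate 1 and 0.165% in replicate 2, and the lowest count of any of them in either library was 228 reads. Levels spanned 4.90 to 356 TPM as means of the libraries. In descending order the genes were Asns, Ppp1r15a, Ddit3, Atf4, Eif2ak1, Ppp1r15b, Atf5, Trib3, Eif2ak4 and Sesn2. In 7 of the 9 neighbouring pairs in this order, both libraries of the higher gene lay above both of the lower gene. The exceptions were Asns with Ppp1r15a and Atf5 with Trib3, whose values overlapped.

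**Figure D1:**
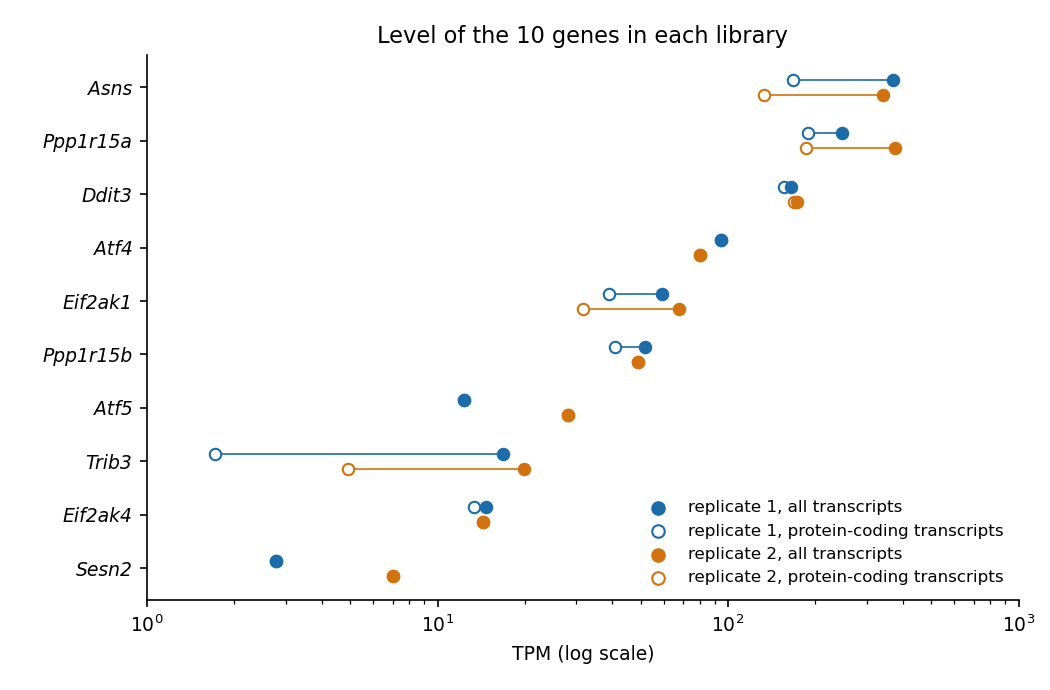
Level of each of the 10 genes in each library as TPM on a log axis, with 1 point per library (blue replicate 1, orange replicate 2). Filled points sum all transcripts of a gene and open points only those annotated as protein coding; for Trib3 the open points lie at 1.72 and 4.93 TPM, far left of the filled ones at 16.8 and 19.9 TPM.

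Both eIF2 alpha kinases among the genes were expressed, HRI more than GCN2. Eif2ak1 (chromosome 5, 143817788 to 143904251, plus strand; all gene positions are GENCODE M21 on GRCm38, the mm10 assembly) had 59.2 TPM in replicate 1 and 67.8 TPM in replicate 2 (63.5 ± 6.14, mean ± SD, n = 2), from 4818 and 2221 reads. Eif2ak4, which encodes GCN2, the kinase that senses uncharged tRNA (chromosome 2, 118388618 to 118475234, plus strand), had 14.7 and 14.3 TPM (14.5 ± 0.247, n = 2), from 1307 and 874 reads. Eif2ak1 thus stood 4.03-fold above Eif2ak4 in replicate 1 and 4.73-fold above it in replicate 2, and the libraries did not overlap. Over protein-coding transcripts alone the excess was 2.92-fold in replicate 1 and 2.20-fold in replicate 2. Among protein-coding genes Eif2ak1 ranked 1481st in replicate 1 and 1278th in replicate 2, and Eif2ak4 4699th and 5237th.

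The transcripts behind the level of Eif2ak1 differed between the libraries. Its 4330-base coding transcript carried 83.8% and 83.5% of the gene's reads in replicates 1 and 2, and had 38.9 and 31.6 TPM. The remaining reads sat on short transcripts that the annotation classes as retained intron. A 1654-base one had 19.9 TPM in replicate 1 and 1.85 TPM in replicate 2, whereas a 736-base one had 0.41 TPM in replicate 1 and 34.4 TPM in replicate 2. The 736-base transcript therefore held 50.7% of the gene's TPM in replicate 2 on 14.7% of its reads (exact 95% binomial interval 13.2% to 16.2%, counting error only), against 0.69% of TPM in replicate 1. Eif2ak1 also overlaps Aimp2, a gene on the opposite strand that encodes a scaffold of the tRNA synthetase complex. They share 488 identical bases of transcript, and Aimp2 had 13.0 and 31.4 TPM in replicates 1 and 2. No source used here says whether strand was used in counting, so reads of the shared stretch could have gone to either gene.

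For Eif2ak4 the estimate moved between coding transcripts of similar length. A 5298-base transcript held 53.3% of the gene's TPM in replicate 1 and 0.02% in replicate 2. A 5212-base transcript held 0% in replicate 1 and 76.4% in replicate 2. The deposited posterior means, a second estimate from the same reads, split replicate 2 into 37.3% and 31.8% for the 5298-base and the 5212-base transcript. The total of the gene differed far less between the libraries than either transcript, and a 2134-base coding transcript held 33.6% and 20.6% of TPM in replicates 1 and 2.

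Of the transcription factors, Ddit3 was the highest, Atf4 the next and Atf5 the lowest. Atf4 (chromosome 15, 80255184 to 80257541, plus strand), the main activator of the response, had 94.8 TPM in replicate 1 and 79.9 TPM in replicate 2 (87.3 ± 10.5, n = 2), from 3856 and 1837 reads. Atf5 (chromosome 7, 44812256 to 44816658, minus strand), a related bZIP activator under similar translational control, had 12.4 and 28.2 TPM (20.3 ± 11.2, n = 2), from 527 and 684 reads. Atf4 was 7.65-fold above Atf5 in replicate 1 and 2.83-fold above it in replicate 2. Relative to its mean the spread of Atf5 was the widest of the 10 genes after Sesn2. Its reads lay mostly on a 1815-base coding transcript, with 82.3% of TPM in replicate 1 and 100% in replicate 2, and a 1735-base coding transcript held the rest, 17.7% and 0%.

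Ddit3 encodes CHOP, a bZIP factor induced by ATF4 that promotes cell death under lasting stress (chromosome 10, 127290774 to 127296288, plus strand). It had 165 TPM in replicate 1 and 173 TPM in replicate 2 (169 ± 5.73, n = 2), from 3392 and 2002 reads. Ddit3 lay 1.74-fold above Atf4 in replicate 1 and 2.17-fold above it in replicate 2, and in neither library did the order turn round. Without scaling to length the order turned in replicate 1 and held in replicate 2: in CPM the genes had 130 (Ddit3) and 147 (Atf4) in replicate 1 and 142 (Ddit3) and 130 (Atf4) in replicate 2. One 890-base coding transcript held 94.1% and 96.5% of the TPM of Ddit3, while Atf4 had 1 transcript in the tables.

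Among ATF4 targets, Asns was abundant and Trib3 was not. Both are textbook ATF4 targets, and their promoters are shown because they were the members whose promoter windows held the C/EBP-ATF response element TGATGNAA, the site ATF4 binds with a C/EBP partner. The windows run from 250 bases before to 50 bases after the start site, come from RefSeq (GRCm38.p6), and are written 5′ to 3′ on the strand of the gene with the match in capitals. The Asns window is chr6:7693160-7693459, minus strand, and the Trib3 window is chr2:152344011-152344310, minus strand.
Asns: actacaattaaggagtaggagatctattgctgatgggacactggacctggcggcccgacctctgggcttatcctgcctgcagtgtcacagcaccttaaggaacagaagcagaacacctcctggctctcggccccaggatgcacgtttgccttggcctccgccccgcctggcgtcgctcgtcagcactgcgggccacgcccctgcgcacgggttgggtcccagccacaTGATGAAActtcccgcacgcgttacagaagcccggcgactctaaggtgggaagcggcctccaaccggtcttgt
Trib3: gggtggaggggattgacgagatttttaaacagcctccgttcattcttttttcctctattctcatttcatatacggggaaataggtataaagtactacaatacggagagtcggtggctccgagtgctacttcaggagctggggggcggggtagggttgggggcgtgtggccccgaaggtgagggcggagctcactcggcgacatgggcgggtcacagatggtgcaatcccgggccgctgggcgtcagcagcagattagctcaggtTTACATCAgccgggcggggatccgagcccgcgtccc
In Asns the match TGATGAAA lies 23 to 16 bases before the RefSeq start site on the gene's own strand. In Trib3 it lies 15 to 22 bases after the RefSeq start site and reads TGATGTAA on the other strand, which appears as TTACATCA in the printed line. GENCODE M21 places both start sites elsewhere: by its gene positions the Asns match (7693225 to 7693232) lies inside the gene and the Trib3 match (152344039 to 152344046) lies before its start. The motif was sought on both strands in the windows of 9 of the 10 genes (11 windows). It was in 2 of the 11 windows, from 2 of the 9 genes, while 3.97% of all 32851 mouse windows held it. The share over all genes was not computed. The ER stress element (CCAAT, 9 bases of any kind, CCACG), sought on both strands as well, was in the windows of 0 of the 9 genes and in 0.119% of all windows. With no ER stress element found, no match of one motif overlapped the other, and a match describes the sequence, not binding.

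Asns, which encodes asparagine synthetase (chromosome 6, 7675169 to 7693254, minus strand), had 369 TPM in replicate 1 and 342 TPM in replicate 2 (356 ± 18.9, n = 2), from 9908 and 4728 reads. It ranked 181st of protein-coding genes in replicate 1 and 196th in replicate 2. A 448-base processed transcript, a class without an annotated coding sequence, held 54.3% and 60.3% of this TPM on 19.8% and 24.2% of the gene's reads. The 2001-base coding transcript held 44.1% and 38.7% of TPM on 77.8% and 75.0% of reads. Counting coding transcripts alone, Asns had 167 TPM in replicate 1 and 133 TPM in replicate 2 (150 ± 24.1, n = 2), which overlapped Ddit3 but neither Ppp1r15a above it nor Atf4 below it.

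Trib3 encodes a pseudokinase that binds and restrains ATF4 and CHOP (chromosome 2, 152337422 to 152344032, minus strand). It had 16.8 TPM in replicate 1 and 19.9 TPM in replicate 2 (18.4 ± 2.15, n = 2), from 253 and 228 reads. Most of that level belonged to a 504-base retained-intron transcript, with 86.2% of TPM in replicate 1 and 75.2% in replicate 2. The 2026-base coding transcript had 1.72 and 4.93 TPM (3.33 ± 2.27, n = 2), which drew 32.6% of reads in replicate 1 and 58.7% in replicate 2. The exact 95% binomial intervals of these shares, 27.1% to 39.0% for replicate 1 and 52.1% to 65.2% for replicate 2, cover counting error only and treat estimated reads as whole ones. By coding transcripts Trib3 was the lowest of the 10 genes by mean, although its libraries overlapped those of Sesn2.

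Sesn2 encodes Sestrin 2, a leucine sensor that restrains the growth kinase complex mTORC1 and is a target of ATF4 and of p53 (chromosome 4, 132492032 to 132510501, minus strand). It had 2.77 TPM in replicate 1 and 7.02 TPM in replicate 2 (4.90 ± 3.01, n = 2), from 230 and 330 reads on its 1 transcript. These were the lowest levels of the 10 genes in both libraries. Sesn2 was the member nearest to the detection limit of 1 TPM, and the only one under 10 TPM.

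The phosphatase subunits that reverse the response were both expressed, the inducible one above the constitutive one. Ppp1r15a encodes GADD34, which is induced through ATF4 and brings protein phosphatase PP1 to eIF2 alpha (chromosome 7, 45522916 to 45526268, minus strand). It had 247 TPM in replicate 1 and 376 TPM in replicate 2 (311 ± 90.9, n = 2), from 11022 and 6794 reads, the most reads of the 10 genes in both libraries. Ppp1r15b encodes CReP, the subunit that does this in unstressed cells (chromosome 1, 133131143 to 133139783, plus strand). It had 51.6 and 48.9 TPM (50.2 ± 1.95, n = 2), from 6435 and 3712 reads. Ppp1r15a was 4.79-fold above Ppp1r15b in replicate 1 and 7.69-fold above it in replicate 2.

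Most of the gap between the libraries in Ppp1r15a lay on a short transcript. Its 2333-base coding transcript had 187 TPM in replicate 1 and 183 TPM in replicate 2. A 389-base transcript that was in the tables and not in GENCODE M21 had 57.5 TPM in replicate 1 and 188 TPM in replicate 2, on 4.36% and 13.1% of reads. By coding transcripts alone Ppp1r15a had 188 and 185 TPM (187 ± 2.23, n = 2), the highest of the 10 genes, and its excess over Ppp1r15b was 4.63-fold in replicate 1 and 3.79-fold in replicate 2. Ppp1r15b had a 3688-base processed transcript with 21.2% of TPM in replicate 1 and 0% in replicate 2, beside its 5594-base coding transcript with 78.8% and 100%. A gene on the opposite strand, Gm26616, shares 640 identical bases with Ppp1r15b and had 2.83 and 3.18 TPM in replicates 1 and 2.

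**Figure D2:**
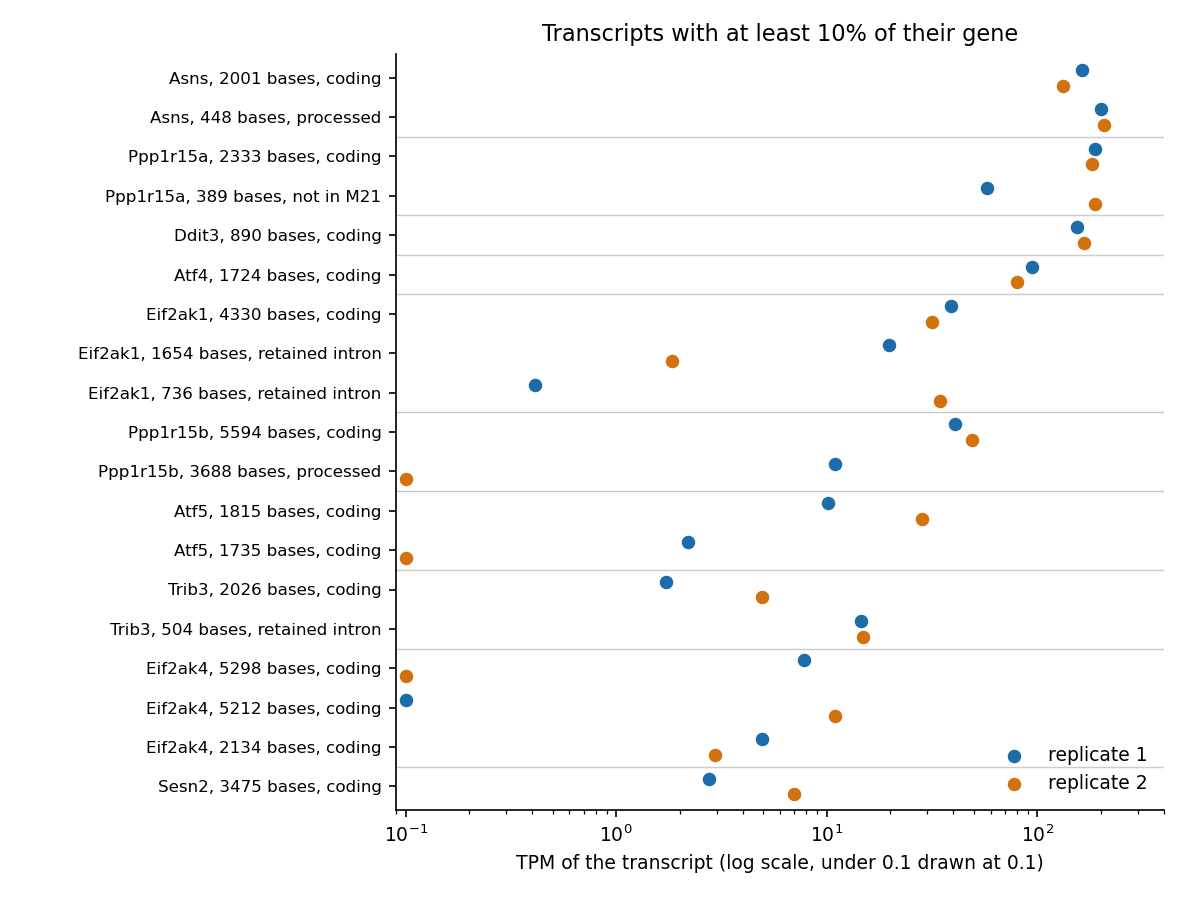
TPM on a log axis of the 19 transcripts with at least 10% of their gene's TPM in either library, labelled by gene, length and annotation class (blue replicate 1, orange replicate 2, values under 0.1 drawn at 0.1). The coding transcript of Ppp1r15a (187 and 183 TPM) and the 448-base one of Asns (200.2 and 206 TPM) stayed close between the libraries, while the 736-base transcript of Eif2ak1 (0.41 and 34.4 TPM) and the 5298-base and 5212-base transcripts of Eif2ak4 did not.

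Across the 10 genes, 30 of the 34 transcripts had reads in either library, and 23 were annotated as protein coding. The leading transcript by TPM was the same in both libraries for 7 genes, and by reads for 8. By mean TPM it was protein coding for 8 genes, the exceptions being Asns and Trib3, and by mean reads for 9, the exception being Trib3. When levels were summed over coding transcripts, a choice made after the data were seen, the order became Ppp1r15a, Ddit3, Asns, Atf4, Ppp1r15b, Eif2ak1, Atf5, Eif2ak4, Sesn2 and Trib3, and 6 of the 9 neighbouring pairs did not overlap between libraries. No other gene of the annotation matched a transcript of the 10 genes at 95% identity or more over 200 bases, apart from Aimp2 and Gm26616. Genes whose bodies overlap those of the 10 genes without such a match between transcripts were Ankrd61 beside Eif2ak1 (1.07 and 1.01 TPM in replicates 1 and 2), Tulp2 beside Ppp1r15a (1.57 and 1.13 TPM), Il4i1 (1.30 and 3.31 TPM) and Nup62 beside Atf5, Mars (20.6 and 39.1 TPM) and Gm4189 (1.88 and 1.37 TPM) beside Ddit3, all on the opposite strand, and Gm12981 on the same strand as Sesn2 (0.14 and 0 TPM).

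**Figure D3:**
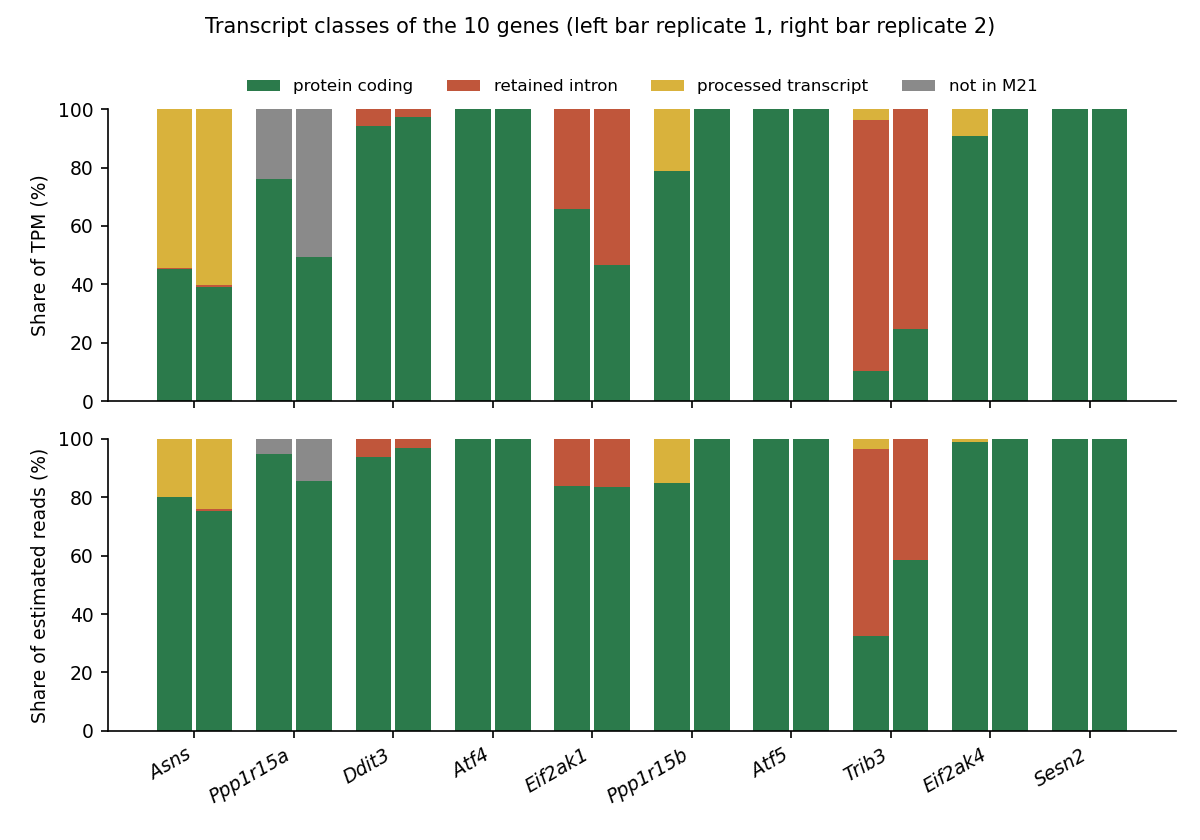
Share of each gene's TPM (upper panel) and of its estimated reads (lower panel) on transcripts of each annotation class, in percent, with replicate 1 as the left bar and replicate 2 as the right bar of each pair. For Asns the non-coding classes are wide in the upper panel and narrower in the lower one. Its processed transcript held 54.3% and 60.3% of TPM but 19.8% and 24.2% of reads. The retained-intron transcript of Ddit3 held slightly less of TPM (5.64% and 2.69%) than of reads (6.14% and 2.94%).

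Upstream start codons, the feature through which phosphorylated eIF2 alpha raises translation of Atf4, were counted in the 5′ UTR of the leading coding transcript of each gene. Atf4 had 3, and 1 of them opened a reading frame that runs past the coding start out of frame. Atf5 had 2, with 1 such frame, and they were the only 2 of the 10 genes to have one. Ppp1r15a and Ppp1r15b had 3 each, Ddit3 and Asns 2 each, Sesn2 1, and Eif2ak1, Eif2ak4 and Trib3 had 0. At least 1 upstream ATG was present in 7 of 10 genes and at least 2 in 6, while 48.0% and 26.0% of 9510 expressed protein-coding genes had as many. A frame past the coding start was present in 16.9% of those genes. The 5′ UTR had a median of 234.5 bases in the 10 genes and 150 bases in the expressed genes. The part of UTR length in these counts was not tested.

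Of the 10 genes, 8 lay within 2-fold of each other between the libraries, and Sesn2 and Atf5 did not. After TMM scaling of the counts, the log2 ratio of replicate 1 over replicate 2 was 0.48 for Eif2ak1, 0.43 for Asns and for Atf4, 0.16 for Ppp1r15b, 0.13 for Ddit3, 0.06 for Ppp1r15a and −0.05 for Eif2ak4. Trib3 lay lower in replicate 1, with a log2 ratio of −0.48. Sesn2, with 8.80 CPM in replicate 1 and 23.3 CPM in replicate 2, had a log2 ratio of −1.15, and Atf5, with 20.1 CPM in replicate 1 and 48.4 CPM in replicate 2, had −1.01. These 2 of 10 genes lay 2-fold or more apart, where 31.5% of the 13509 genes whose counts averaged 10 or more did in either direction and 15.0% did as lower in replicate 1. The median absolute log2 ratio was 0.43 over the 10 genes and 0.68 over all 13509. With 1 library against 1 these ratios have no test. Under the other scalings, filters and prior counts that were run, Asns and Atf4 stayed higher in replicate 1. Sesn2, Atf5 and Trib3 stayed lower. The sign of Eif2ak1, Eif2ak4, Ddit3, Ppp1r15a and Ppp1r15b turned under at least 1 of these settings. Atf5 and Trib3 turned only when the trend with GC content, described below, was removed (0.11 and 0.42). The deposited credibility bounds, whose level is unstated, ran from 2.30 to 2.99 TPM in replicate 1 and from 5.80 to 7.20 TPM in replicate 2 for Sesn2. For Atf5 they ran from 10.8 to 12.9 TPM in replicate 1 and from 24.2 to 28.0 TPM in replicate 2. These bounds of Sesn2 and Atf5 did not overlap between the libraries. Nor did those of Asns, Ppp1r15a, Atf4 and Ppp1r15b, which lay within 2-fold. The bounds of Eif2ak1, Ddit3, Trib3 and Eif2ak4 did overlap. Those of Eif2ak4 ran from 13.0 to 16.0 TPM in replicate 1 and from 12.2 to 15.1 TPM in replicate 2. Such overlap was not counted over all genes.

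GC content moved with these ratios. The transcripts of Atf5 had 61.5% GC, those of Sesn2 58.7% and those of Trib3 58.5%, the highest of the 10 genes, whereas Ppp1r15b had 48.5% and Asns 48.8%. Across 8893 protein-coding genes Spearman's rho of the log2 ratio with GC content was −0.78, and over the 10 genes it was −0.78 too, both given as a description of 2 libraries. Genes of like GC content had a median log2 ratio of −0.88 beside Sesn2 (1179 genes) and −1.11 beside Atf5 (391 genes). With the GC trend removed, Sesn2 had a log2 ratio of −0.24 and Atf5 one of 0.11. Then 0 of the 10 genes lay 2-fold or more apart, where 16.3% of 13321 genes did. The median absolute log2 ratio became 0.33 over the 10 genes and 0.41 over all. The largest remaining ratios were those of Atf4 at 0.91, Ppp1r15a at 0.79 and Ddit3 at 0.70, each above the trend of genes of like GC. The summed erythroid and megakaryocyte markers were also higher in replicate 2, as Sesn2 and Atf5 were, and their part in these ratios was not tested.

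**Figure D4:**
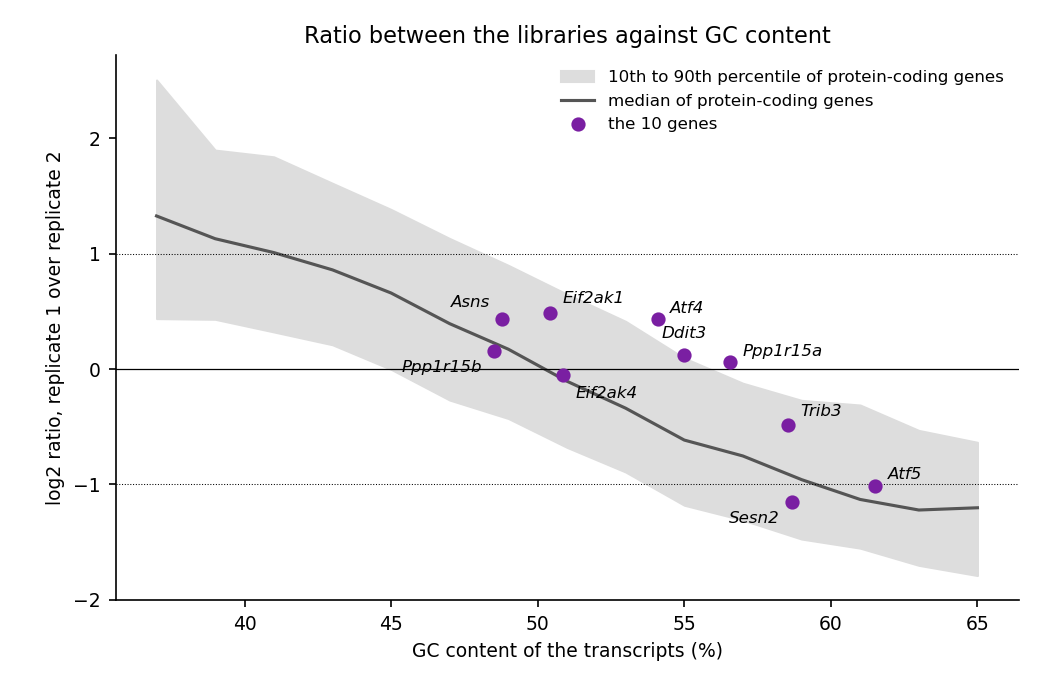
Log2 ratio of replicate 1 over replicate 2 against the GC content of each gene's transcripts in percent, with the 10 genes as points, the median of protein-coding genes as a line and their 10th to 90th percentile as a band (bins of GC content). Sesn2 (−1.15) and Atf5 (−1.01) sit near the line at high GC, while Atf4, Ddit3 and Ppp1r15a sit above the band's upper edge.

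The other genes of the pathway were read from 10 lists with 117 distinct genes. Of these, 105 were detected, and the median level was 20.8 TPM over all 117 and 23.7 TPM over the 105. List ranks below go by the mean TPM of both libraries over all transcripts. For 16 of the 105 genes, under 50% of that TPM lay on transcripts that M21 classes as protein coding, and 102 of the 117 genes had at least 1 TPM on such transcripts in both libraries. The other eIF2 alpha kinases and the regulators of HRI and GCN2 were detected in 10 of 10 cases (median 46.1 TPM). The chaperones that fold HRI led this list: Hsp90ab1 had 2710 TPM in replicate 1 and 969 TPM in replicate 2, Hsp90aa1 had 1052 and 303, Hspa8 had 339 and 816, and Cdc37 had 272 and 380. Over coding transcripts Hsp90aa1 had 149 TPM in replicate 1 and 120.5 TPM in replicate 2, so most of its gap between the libraries lay on other transcripts. Hspa8 had 326 and 271 TPM over coding transcripts, which turns its order between the libraries. The lowest of the list by mean were Nck1 with 20.0 and 8.49 TPM and Dnajc3, an inhibitor of eIF2 alpha kinases, with 10.4 and 6.56 TPM. Named after their values were seen, Eif2ak2, the kinase PKR that senses double-stranded RNA, had 40.6 and 41.1 TPM, and Eif2ak3, the kinase PERK of the endoplasmic reticulum, had 17.2 and 15.9 TPM (2.46 and 3.10 over coding transcripts). By TPM over all transcripts HRI was thus the highest of the 4 eIF2 alpha kinases in replicate 1 and in replicate 2. Over coding transcripts alone Eif2ak1 had 38.9 and 31.6 TPM and Eif2ak2 had 35.8 and 37.1 TPM, which overlapped. By that measure Eif2ak1 was the higher in replicate 1 and Eif2ak2 in replicate 2.

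Genes for the substrate and its exchange factor were detected in full by total TPM, 9 of 9 eIF2 and eIF2B genes (median 37.0 TPM). Eif2s1, which encodes eIF2 alpha itself, was among the lowest with 13.2 TPM in replicate 1 and 19.0 TPM in replicate 2, and Eif2b5, the catalytic subunit of eIF2B, had 10.5 and 12.1 TPM. Eif2s2 was the highest by mean but differed widely between the libraries, with 503 TPM in replicate 1 and 62.5 TPM in replicate 2. Eif2s3y had 115 and 44.4 TPM, Eif2b4 had 51.5 and 97.5 TPM, of which 0.38 and 6.79 TPM lay on transcripts classed as protein coding and 95.2% of the mean on transcripts that were not matched to M21, and Eif2s3x had 77.8 and 59.3 TPM.

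In the mitochondrial relay to HRI, OMA1 cleaves DELE1 and the fragment activates HRI. The list for it held Oma1, Dele1 and other mitochondrial genes, such as chaperones and a protease subunit. Of this list 9 of 9 genes were detected (median 48.9 TPM). Dele1 had 12.2 TPM in replicate 1 and 22.6 TPM in replicate 2, and Oma1 had 15.7 and 17.1 TPM, the lowest means of the list. The mitochondrial chaperones Hspe1 (279 and 320 TPM), Hspa9 (114 and 72.8 TPM) and Hspd1 (94.8 and 63.6 TPM) and the protease subunit Clpp (43.1 and 101 TPM) were the highest by mean. Over coding transcripts Oma1 had 4.85 and 3.96 TPM.

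Among possible partners of ATF4 and other bZIP factors, 13 of 14 were detected (median 11.1 TPM). Atf1 (103 TPM in replicate 1 and 76.3 TPM in replicate 2, and 43.8 and 32.2 over coding transcripts), Atf2 (76.3 and 34.9 TPM), Nfe2l1 (43.3 and 46.4 TPM) and Nfe2l2 (45.6 and 43.6 TPM) led the list. Cebpb, a partner of ATF4, had 1.41 and 2.54 TPM, and Batf3 had 0.63 and 0.87 TPM and was not detected. The other C/EBP genes of the list, named after their values were seen, were Cebpg, Cebpa and Cebpd. Cebpg had 12.4 and 8.08 TPM, Cebpa 1.86 and 4.54 TPM and Cebpd 2.03 and 3.73 TPM. Ddit3 and Atf4 were not in this list. Ddit3 lay above every gene of it in both libraries. Atf4 lay above every one but Atf1 in replicate 1 and above every one in replicate 2.

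The level of Asns was not shared by the other ATF4 targets in amino acid supply. Of the synthesis genes 10 of 12 were detected (median 9.96 TPM), the highest being Psat1 of serine synthesis with 47.5 TPM in replicate 1 and 57.0 TPM in replicate 2. Mthfd2 of mitochondrial folate metabolism had 16.3 and 53.4 TPM (9.03 and 11.6 over coding transcripts), Got1 had 18.6 and 27.8 TPM (6.83 and 14.6 over coding transcripts), and Aldh18a1 of proline synthesis had 16.7 and 24.9 TPM. The lowest by mean were the transsulfuration enzymes Cth with 1.69 and 0.99 TPM and Cbs with 0.35 and 1.31 TPM. Asns lay above all 12 in both libraries, also by its coding transcripts. Of the amino acid transporters 7 of 9 were detected (median 13.5 TPM). Slc38a2 had 45.7 and 71.4 TPM, Slc3a2 had 17.7 and 32.0 TPM, Slc7a5 had 17.5 and 22.1 TPM and Slc1a5 had 12.0 and 23.1 TPM (3.53 and 10.3 over coding transcripts). Slc7a3 had 0.48 and 1.26 TPM, and the cystine transporter Slc7a11 had 0.54 and 0.79 TPM.

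Of 20 other ATF4 targets 16 were detected (median 22.3 TPM). Txnip, which binds thioredoxin, had 1948 TPM in replicate 1 and 2091 TPM in replicate 2, Sqstm1 had 256 and 418 TPM, Gadd45a had 304 and 241 TPM and Vegfa had 90.2 and 115 TPM. Over coding transcripts Txnip had 335 TPM in replicate 1 and 157 TPM in replicate 2, which turns its order between the libraries, and Sqstm1 had 44.6 and 54.7 TPM. The secreted stress hormone Fgf21 had 0 reads in both libraries, and Vldlr had 0.04 and 0 TPM from 3 and 0 reads. The other genes not detected, named after their values were seen, were Chac1, which degrades glutathione, with 0.34 and 2.48 TPM, and the stress cytokine Gdf15 with 0.03 and 0.11 TPM.

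All 14 ER stress genes, a response that shares Ddit3 with that of ATF4, were detected (median 23.3 TPM). The ER chaperones Hsp90b1 (434 TPM in replicate 1 and 292 TPM in replicate 2), Calr (338 and 214 TPM), Hspa5 (127 and 126 TPM) and Manf (73.9 and 67.6 TPM) were the highest by mean, and the sensor Ern1 (5.67 and 7.52 TPM) and Dnajb9 (7.62 and 2.17 TPM) the lowest by mean. Calr had 80.7 and 86.6 TPM over coding transcripts. Ddit3 lay above Hspa5 in both libraries. Of 8 heat shock genes 5 were detected (median 17.8 TPM), led by Hspa4 (190 and 59.8 TPM, and 47.1 and 44.4 over coding transcripts), Hsph1 (57.8 and 58.1 TPM), Hsf1 (19.0 and 48.1 TPM) and Dnajb1 (14.7 and 32.6 TPM). The stress-inducible Hspa1a, which can share reads with its near-identical copy Hspa1b, had 0 reads in both libraries and Hspb1 had 2 reads in replicate 1 and 0 in replicate 2.

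The list for the nutrient-sensing circuit of Sesn2 held Sestrin and GATOR genes and others, such as Keap1 and Castor1. Of this list 14 of 14 genes were detected (median 14.1 TPM). Sesn3, a relative of Sesn2, had the highest mean, with 45.5 TPM in replicate 1 and 41.8 TPM in replicate 2. Depdc5 had 49.0 and 25.6 TPM, Seh1l had 36.9 and 27.4 TPM, and Keap1 had 18.0 and 40.2 TPM. Wdr59 had 2.80 and 3.57 TPM and the arginine sensor Castor1 had 1.19 and 2.24 TPM. Sesn2 lay below Sesn3 in both libraries.

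**Figure D5:**
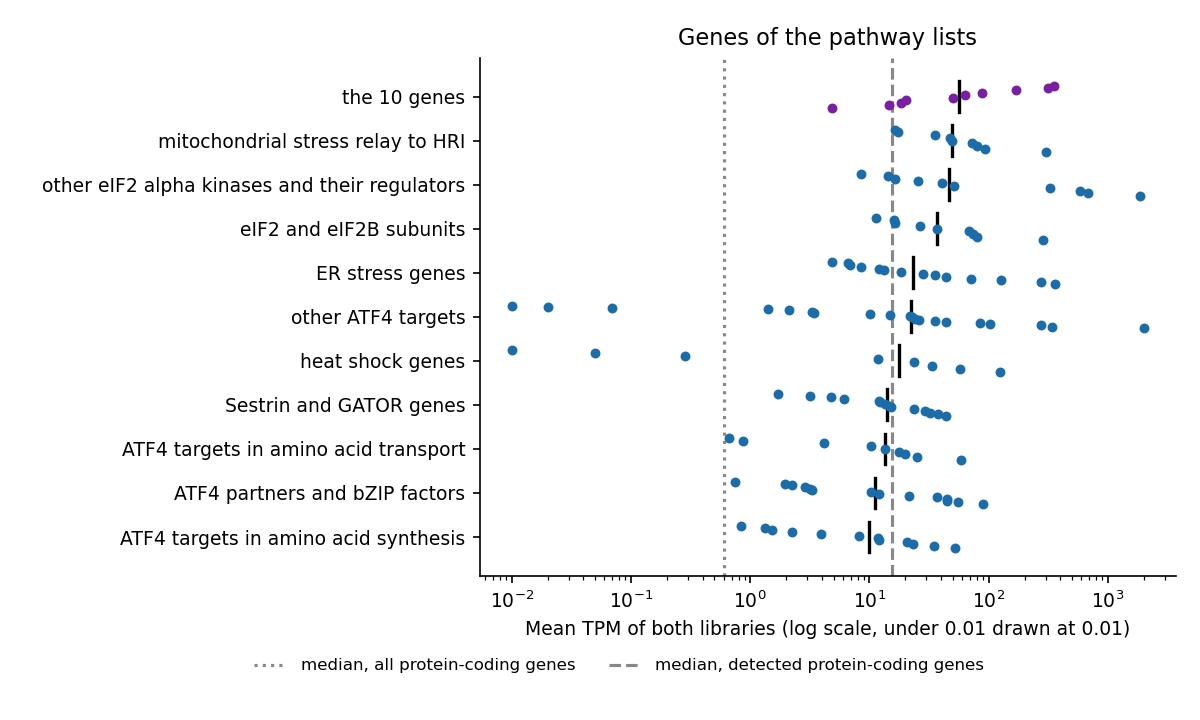
Mean TPM of both libraries on a log axis for the 10 genes (top row) and the genes of each of the 10 lists, with 1 point per gene and a black bar at the median of the row. The dotted and dashed lines mark the medians of all (0.6 TPM) and of detected (15.5 TPM) protein-coding genes; the median of the 10 genes, 56.9 TPM, lies right of both.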

How the data were processed

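PolyA RNA of DMSO-treated MEL cells was sequenced single-end in 2 libraries. The labels and the submitters' file lists name mm10 and GENCODE M4. No source used here names the quantification program or aligner. Per the file headers, the authors deposited expected counts (estimated reads, unscaled), TPM and FPKM (scaled to length and library size), posterior mean TPM with bounds of unstated level, and each transcript's percent of its gene. Deposited TPM lay above its upper bound for 6 genes in replicate 1 and 7 in replicate 2, so posterior means are lower.

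Symbols, classes and positions came from GENCODE M21 by Ensembl identifier without version (42462 of 43346 genes matched). Of the listed names, Dele, Ero1a and Gcn1 were read as Dele1, Ero1l and Gcn1l1. Another 26345 rows that name no gene held 0.0296% and 0.0465% of reads in replicates 1 and 2, and stayed out of scaling. Expected counts were rounded for TMM factors (edgeR 4.0.16) and for size factors (DESeq2 1.42.0) in R 4.3.3. A prior count of 1 was added before log2 ratios, which were summarised over genes averaging 10 counts or more. A GC content weighted by TPM over M21 transcripts was known for 99.0% of protein-coding genes averaging 100 counts or more, and its trend was a lowess curve over those genes (span 0.3, 3 iterations). Scaling and trend removal were tested on simulated data. Copies, sought for the 10 genes only, needed 95% identity over 200 bases (BLAST+ 2.17.0). Other steps used Python 3.11.15, pandas 2.3.3, numpy 2.4.6, scipy 1.17.1, statsmodels 0.14.6 and matplotlib 3.10.9.

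The 10 genes and the lists were chosen with earlier results of these data known. Named were all 10 genes, their transcripts with at least 10% of TPM in either library, the 4 highest and 2 lowest genes of each list, and overlapping copies. With 2 libraries no likeness of pattern was measured. Alternatives were other detection limits, units, scalings, filters, prior counts and each library alone.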

Additional observations from a re-analysis of the deposited data

How the results depend on the processing

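All 10 genes stayed detected at 0.1 TPM, by posterior means, by FPKM and in each library alone, and 9 of 10 (all but Sesn2) at 5 and at 10 TPM. The number 2-fold apart between the libraries, 2 in the main scaling, was 1 without a filter on counts (Atf5 at a log2 ratio of −0.95) and 0 with the GC trend removed, where Atf5 turned to 0.11. The share over all genes moved as well, from 31.5% to 20.5% without a filter and to 16.3% with the trend removed. The number of the 10 genes was 2 under DESeq2 size factors, total counts, TPM, a minimum of 100 counts and prior counts of 0.25 and 5. Under these settings the share over all genes was 26.5% (100 counts) to 33.9% (total counts). Total counts move the median of all genes to −0.26. The log2 ratio of Eif2ak1 over Eif2ak4, 2.13 in TPM, was 1.61 in CPM and 1.34 over coding transcripts. That of Atf4 over Ddit3, −0.96 in TPM, was 0.030 in CPM, which does not divide by length. That of Ppp1r15b over Ppp1r15a, −2.60 in TPM, was −0.82 in CPM and −2.07 over coding transcripts. No paired analysis was possible because there was 1 group. Of the mean levels, 7 of 10 moved by more than the SD when only coding transcripts were summed, 4 of 10 by posterior means and 10 of 10 with TPM rescaled to nuclear protein-coding genes, which raised every level (Eif2ak1 to 108 TPM, against 63.5, and Asns to 607 TPM, against 356). The leading transcript was protein coding for 6 to 9 of the 10 genes under the alternatives (8 in the main estimate, 6 in replicate 2 alone), and 73 (10 TPM) to 112 (0.1 TPM) of the 117 list genes were detected. Depth limits Trib3 and Sesn2 most, with 228 to 330 reads a library, and short transcripts gain high TPM from few reads.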
